A study of Mus musculus with 4 samples.

Results

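Natural killer (NK) cells and type 1 innate lymphoid cells (ILC1) of the mouse liver were described through 10 genes chosen by name for parting or marking them: Tbx21, Eomes, Itga1, Itga2, Itgam, Cd160, Cd200r1, Ncr1, Tmem176a and Tmem176b. These are 10 of the 32285 genes in the deposited tables, and the rule that names them uses no measured value. The list was, however, drawn up with earlier results of these data known. They were read in an NK/ILC1 gate, defined as cells with at least 1 unique molecular identifier (UMI, a tag that counts 1 captured transcript) of Ncr1 or Klrb1c and 0 of Cd3d, Cd3e and Trac. The gate held 91 of 1593 kept cells. Ncr1 is one of the genes of the gate, so its level there is a description.

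CD45+ leukocytes were sequenced cell by cell in droplets, 2 libraries from portal vein (PV) zones, the inflow end of the liver lobule, and 2 from central vein (CV) zones, its outflow end. Every library came from healthy liver of mice with the genotype PA-GFP C57BL/6, which carry a photoactivatable green fluorescent protein, and every library had photoactivation as its treatment. The labels do not state whether the libraries stem from different mice, so each p-value describes the spread between libraries, which may be technical.

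NK cells and ILC1 both express the transcription factor T-bet, encoded by Tbx21, and both carry the receptors NKp46 (Ncr1) and NK1.1 (Klrb1c). In mouse liver, circulating NK cells are known to express the related factor Eomes and the integrin CD49b (Itga2), while resident ILC1 are known to lack Eomes and to carry CD49a (Itga1) and CD200R1. Resident and invariant T cells of the liver use many of the same surface genes, which is why several T cell classes were set beside the gate.

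A library had 588 to 755 barcodes and 2741760 to 4373488 UMIs. Of 1939 distinct barcodes, 282 occurred in more than 1 library. Each was kept only where at least 70% of its UMIs lay, and 16 of the 91 gate cells had such a barcode. The other classes were 482 NK1.1+ T cells (T cells with an Ncr1 or Klrb1c UMI), 166 Cxcr6+ T cells, 94 other T cells and 158 B cells. The median depth was 4765 UMIs in gate cells, against 6460.5 in NK1.1+ T cells, 5879 in Cxcr6+ T cells, 5441 in other T cells and 3724 in B cells. Levels are given as CPM, UMIs of a gene scaled to the same total in every library and class, over the summed cells of a class, and a share is the percentage of cells with at least 1 UMI. Intervals are 95% exact binomial intervals for shares and exact intervals for ratios of UMIs. They cover counting error only, and treat the UMIs of 1 cell as separate.

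All 10 marker genes of NK cells and ILC1 were detected in the gate. Of its 91 cells, 71 had both Ncr1 and Klrb1c, 7 had Ncr1 alone, 13 had Klrb1c alone, and 12 rested on 1 UMI of the pair. The 4 marker genes of basophils and mast cells were at 0. Of 11 T cell markers, 5 were detected: Cd3g, Trbc1, Trbc2, Cd4 and Cd8a, while Cd8b1, Cd5 and Cd6 were at 0 and the remaining 3 were at 0 by the rule. The summed T cell markers came to 1967 and 998 CPM in the PV gate cells and 2328 and 1911 CPM in the CV gate cells. The 9 macrophage markers summed to 1941 CPM in PV replicate 2 and to 47.2 CPM or less in the other libraries. The 5 dendritic cell markers summed to 3771 CPM in PV replicate 2 and to 94.4 CPM or less elsewhere. Leaving out the 5 gate cells in which B cell or myeloid UMIs were not below the NK sum removed 20 of 105 Tmem176a UMIs, 21 of 114 Tmem176b UMIs and 10 of 40 Itgam UMIs. Myeloid UMIs in this rule were those of Csf1r, C1qa, C1qb and Cd68, and no dendritic cell marker was used. In the whole gate, 8 cells had 5 or more UMIs of the dendritic cell markers.

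Tmem176a and Tmem176b encode related transmembrane proteins and lie next to each other on chromosome 6 of GRCm38, at 48840919-48847071 on the plus strand and 48833818-48841496 on the minus strand in GENCODE vM21. The annotated genes overlap at their 5′ ends. On the same build, Itga1 (13:114953096-115101964) and Itga2 (13:114833081-114932100) both lie on the minus strand of chromosome 13, Eomes lies at 9:118478212-118486132 and Tbx21 at 11:97098071-97115331. Cd160 lies at 3:96798763-96829351 on the minus strand, where Pdzk1 overlaps it on the plus strand. Whether the counting used strand is not given in the sources used here, so reads from such overlaps could not be assigned with certainty. The start regions are shown because the levels of these neighbours ran together across classes (Pearson r 0.932 over 20 sums of a class in a library, which share libraries). Each window runs from 250 bases before to 50 bases after a start site, 5′ to 3′, from RefSeq on GRCm38.p6. Capitals mark the 208 bases that both windows hold, read on opposite strands.
Tmem176a, chr6:48841233-48841532, plus strand: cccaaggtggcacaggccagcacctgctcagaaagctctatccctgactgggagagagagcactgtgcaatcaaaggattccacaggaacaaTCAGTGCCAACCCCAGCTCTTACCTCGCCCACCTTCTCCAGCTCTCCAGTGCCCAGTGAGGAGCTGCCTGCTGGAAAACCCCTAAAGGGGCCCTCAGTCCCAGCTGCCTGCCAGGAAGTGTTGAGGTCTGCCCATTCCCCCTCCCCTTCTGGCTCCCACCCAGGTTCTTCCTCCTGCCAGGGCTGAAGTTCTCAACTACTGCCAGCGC
Tmem176b, chr6:48841325-48841624, minus strand: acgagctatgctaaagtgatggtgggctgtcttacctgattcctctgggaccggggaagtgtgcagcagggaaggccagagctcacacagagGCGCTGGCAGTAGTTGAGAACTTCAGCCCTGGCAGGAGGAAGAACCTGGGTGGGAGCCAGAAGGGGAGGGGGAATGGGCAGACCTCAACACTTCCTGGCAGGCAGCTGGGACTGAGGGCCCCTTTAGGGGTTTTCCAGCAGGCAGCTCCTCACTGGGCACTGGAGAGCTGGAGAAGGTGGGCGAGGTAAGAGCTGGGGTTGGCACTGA
Start windows were found for 9 of the 10 members, all but Cd200r1, 14 windows in all. The T-box letters AGGTGTGA were searched on both strands and stood in 0 of the 14 windows, against 1.28% of 32851 promoter windows of the same length. The shorter core AGGTGT, which lies within those letters, stood in 0 of 14 windows and in 13.7% of all. The ETS letters CCGGAAGT stood in 0 of 14 and in 3.89% of all.

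Of the T-box factors, Eomes was higher in the gate than in each T cell class, and Tbx21 was higher than in other T cells alone. Eomes, a factor of NK cell maturation, had 25 UMIs in 12 of 91 gate cells (13.2%, 7.0 to 21.9), against 3 UMIs in 1 of 482 NK1.1+ T cells, in 2 of 166 Cxcr6+ T cells, in 3.19% of other T cells and in 0 of 158 B cells, which by the limit of 3 counts allows a share of up to 1.90% (the exact interval reaches 2.31%). Its level in gate cells was 305 and 49.0 CPM in PV replicates 1 and 2, and 7.86 and 38.2 CPM in CV replicates 1 and 2, while NK1.1+ T cells lay between 0 and 3.42 CPM. These 2 classes did not overlap, while other T cells reached 11.4 CPM, above the lowest gate library. Tbx21 was detected in 35.2% of gate cells (25.4 to 45.9), against 33.4% of NK1.1+ T cells and 27.1% of Cxcr6+ T cells, but 5.32% of other T cells and 0.633% of B cells. Its gate levels ran from 55.1 to 126 CPM and those of NK1.1+ T cells from 54.1 to 70.9 CPM, so these ranges overlapped. At 2000 UMIs a cell, the Tbx21 shares were 18.1% in the gate and 10.5% in NK1.1+ T cells, and the Eomes shares were 12.05% and 0.210%.

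Among the integrins, Itgam was the member that separated the gate from every T cell class. Itgam encodes CD11b, an integrin chain of myeloid cells and mature NK cells, and was found in 17.6% of gate cells (10.4 to 27.0), in 0.622% of NK1.1+ T cells and in 0 of 166 Cxcr6+ and 0 of 94 other T cells. Gate levels were 102 and 110 CPM in the PV libraries and 15.7 and 92.8 CPM in the CV libraries, against 0 to 2.67 CPM in NK1.1+ T cells. Without the 5 cells rich in B cell or myeloid UMIs the PV libraries had 102 and 68.7 CPM, against 16.2 and 112 CPM for the CV libraries. Summed over libraries, the gate was at least 29.5-fold higher than Cxcr6+ T cells and at least 14.8-fold higher than other T cells, taking 3 UMIs in the whole class as the most that a count of 0 allows. The remaining cells outside these classes, which include the myeloid cells, had Itgam in 28.7% of 602 cells. Of the 40 Itgam UMIs in the gate, 18 came from 4 cells with 0 UMIs of Itga1, Cd200r1, Eomes and Itga2. The part of myeloid cells in the gate level of Itgam was not tested. Itga1, the collagen-binding CD49a chain, was found in 48.4% of gate cells (37.7 to 59.1), against 38.4% of NK1.1+ T cells, 30.7% of Cxcr6+ T cells and 8.51% of other T cells, and in 34.9% against 17.0% of NK1.1+ T cells at 2000 UMIs a cell. Itga2, the CD49b chain that the DX5 antibody reads, was found in 8.79% of gate cells, against 8.71% of NK1.1+ T cells and 8.43% of Cxcr6+ T cells. B cells, which should lack most of these genes, had Itga1 in 1.90% and Itgam in 6 of 158 cells, below their gate shares.

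Of the surface receptors, Cd200r1 was higher in the gate than in each T cell class, and Cd160 was higher than in other T cells alone. Cd200r1 encodes an inhibitory receptor for CD200 and was found in 35.2% of gate cells (25.4 to 45.9), against 7.26% of NK1.1+ T cells, 9.64% of Cxcr6+ T cells and 3.19% of other T cells. Its gate levels were 33.9 and 73.5 CPM in PV libraries and 142 and 92.8 CPM in CV libraries. All were above the 16.0 CPM that was the highest level in NK1.1+ T cells. Cxcr6+ T cells reached 33.0 CPM in CV replicate 1, close to the lowest gate level, which rested on 1 UMI in PV replicate 1. Cd160, an immunoglobulin-like receptor that binds the herpesvirus entry mediator, was found in 61.5% of gate cells (50.8 to 71.6), 58.5% of NK1.1+ T cells and 47.0% of Cxcr6+ T cells, but in 13.8% of other T cells and 0.633% of B cells. With cells brought to an equal 2000 UMIs, a step that dropped 8 gate cells and 6 NK1.1+ T cells of lower depth, the Cd200r1 shares were 18.1% in the gate and 3.78% in NK1.1+ T cells, and the Cd160 shares were 53.0% in the gate and 30.5% in NK1.1+ T cells. Ncr1, used to define the gate, had UMIs in 85.7% of its cells and in 3.32% of NK1.1+ T cells.

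Tmem176a and Tmem176b, also used by myeloid cells, had shares close to those of T cells with Ncr1, Klrb1c or Cxcr6 UMIs. Tmem176a was found in 24.2% of gate cells, 29.9% of NK1.1+ T cells and 26.5% of Cxcr6+ T cells, against 2.13% of other T cells. Tmem176b was found in 27.5% of gate cells, 35.5% of NK1.1+ T cells and 30.7% of Cxcr6+ T cells, against 2.13% of other T cells and 41.7% of the remaining cells. Gate levels of Tmem176a were uneven between libraries, with 712 and 214 CPM in PV libraries, against 275 and 76.5 CPM in CV libraries. In PV replicate 1, 20 of its 21 UMIs came from 1 cell, which also held all 15 Tmem176b UMIs of that library.

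**Figure D1:**
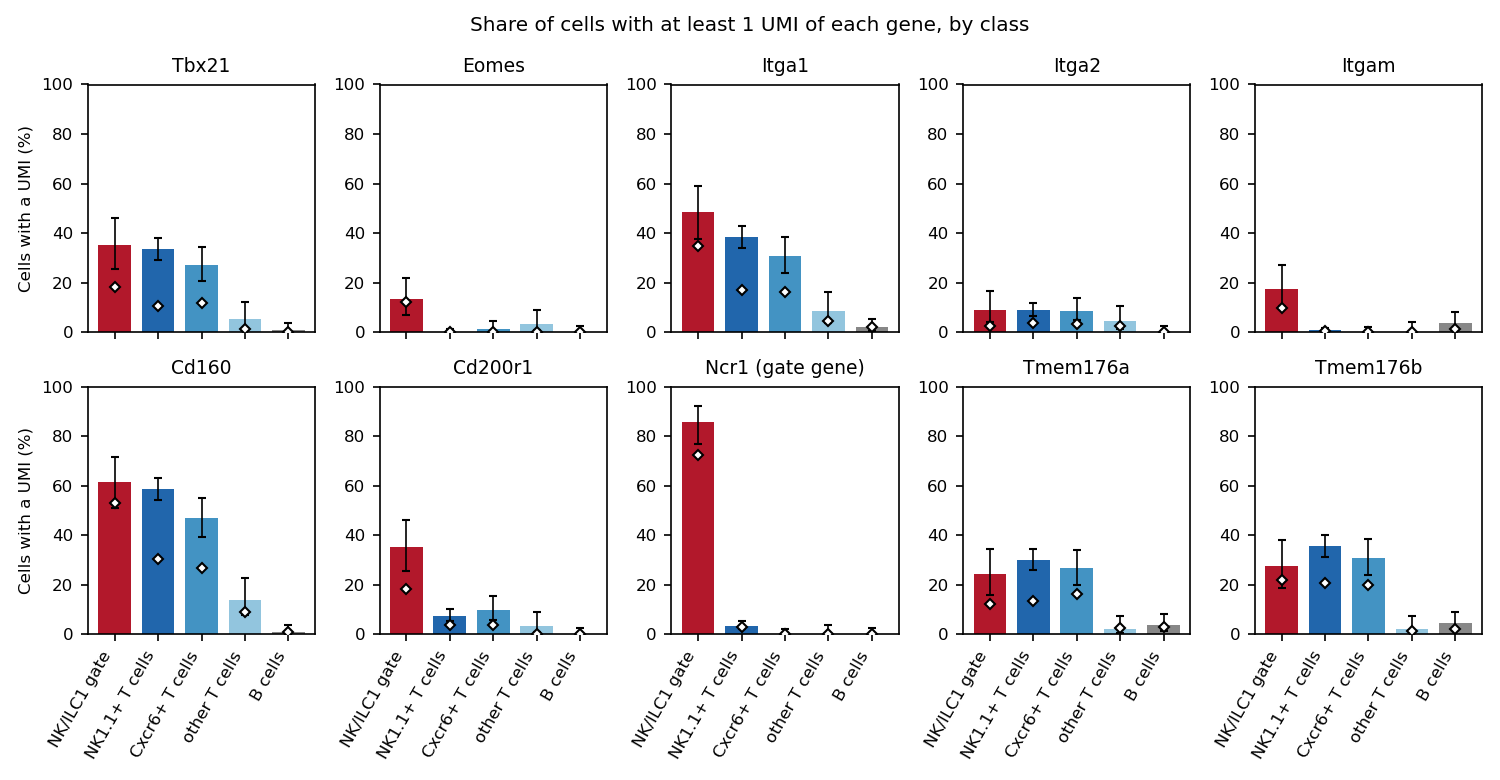
Share of cells with at least 1 UMI (percent, y axis) of each of the 10 genes in 5 classes (x axis). Bars are all cells with 95% exact binomial intervals, and open diamonds are shares after thinning each cell to 2000 UMIs. Eomes, Itgam and Cd200r1 stood at 13.2%, 17.6% and 35.2% in the gate and below 10% in every other class shown, while Tbx21 stood at 35.2% and 33.4%, and Cd160 at 61.5% and 58.5%, in the gate and in NK1.1+ T cells. After thinning the gate was above NK1.1+ T cells for both, at 18.1% and 10.5% for Tbx21 and at 53.0% and 30.5% for Cd160.

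These contrasts were tested over the 4 libraries with edgeR's quasi-likelihood test on summed UMIs, with the library as a block and Benjamini-Hochberg adjustment over 3475 genes. A low-count filter passed 6 members beside Ncr1: Tbx21, Itga1, Itgam, Cd160, Tmem176a and Tmem176b. Against NK1.1+ T cells 1 of these 6, Itgam, was higher in the gate, where 7.42% of all tested genes were called higher. Its log2 fold change was 5.59 ± 1.12 (SE, adjusted p = 0.0021), higher in 4 of 4 libraries. Against Cxcr6+ T cells Itgam was again higher (adjusted p = 0.0077), where 5.87% of genes were called higher. Itgam had 0 UMIs in Cxcr6+ and other T cells and at most 2.67 CPM in NK1.1+ T cells. It could therefore not pass the filter through any T cell class. Its calls against these classes, and its count among the members tested, are a description. Tmem176a had log2 fold changes of 1.21 (adjusted p = 0.064) and 1.41 (adjusted p = 0.051) in these 2 contrasts, and Cd160 had 0.55 (adjusted p = 0.36) and 0.89 (adjusted p = 0.14). Without PV replicate 2 both Cd160 contrasts passed (1.04, adjusted p = 0.028, and 1.35, adjusted p = 0.0084), and without CV replicate 2 both Tmem176a contrasts passed (1.62, adjusted p = 0.011, and 1.84, adjusted p = 0.010). Tmem176a also passed against Cxcr6+ T cells without PV replicate 2 (1.78, adjusted p = 0.046), and Cd160 did so without the 5 cells rich in B cell or myeloid UMIs (1.04, adjusted p = 0.047).

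Against other T cells, which lack Cxcr6, Ncr1 and Klrb1c UMIs by rule, all 6 of these members were higher in the gate, where 9.44% of genes were called higher. The log2 fold changes in edgeR's test were 2.18 for Tbx21 (adjusted p = 0.0083), 2.60 for Itga1 (adjusted p = 0.0067), 2.58 for Cd160 (adjusted p = 0.00059), 4.68 for Tmem176a (adjusted p = 0.00020) and 5.08 for Tmem176b (adjusted p = 6.9e-05). Against B cells 5 of 6 were higher, where 15.1% of genes were called higher. Itgam was the exception, at 1.67 (adjusted p = 0.25). The calls for Tbx21, Itga1 and Itgam against other T cells were lost without CV replicate 2 (adjusted p = 0.076, 0.056 and 0.11), that for Itgam also without PV replicate 2 (adjusted p = 0.11), and that for Tbx21 without CV replicate 1 (adjusted p = 0.059). Itgam against B cells passed without CV replicate 1 (3.73, adjusted p = 0.010), and Itga1 against other T cells was lost where Cd3g was also required to be 0 in the gate (adjusted p = 0.13).

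The other 3 members, Eomes, Itga2 and Cd200r1, had too few UMIs for the filter and were read from the fit without it, over 16069 genes. There 4 of 9 members were higher in the gate than in NK1.1+ T cells, where 2.73% of genes were called higher: Itgam, Eomes, Cd200r1 and Tmem176a. For Eomes the log2 difference was 5.33 ± 0.79 (SE, edgeR adjusted p = 1.2e-09) against NK1.1+ T cells, 4.29 ± 0.86 (adjusted p = 3.3e-05) against Cxcr6+ T cells and 2.66 ± 0.85 (adjusted p = 0.033) against other T cells. Cd200r1 had 2.41 ± 0.41 (SE, edgeR adjusted p = 2.3e-07) against NK1.1+ T cells, 2.02 ± 0.46 (adjusted p = 0.00049) against Cxcr6+ T cells and 3.61 ± 0.67 (adjusted p = 3.9e-06) against other T cells. Itga2 did not pass against any T cell class, with 0.64 (edgeR adjusted p = 0.81) against NK1.1+ T cells. In the same fit 4 of 9 members were higher against Cxcr6+ T cells, where 2.02% of genes were, 8 of 9 against other T cells, where 2.99% were, and 8 of 9 against B cells, where 4.09% were.

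Genes known to go with NK cells and with ILC1 gave a wider view of the same contrast. Of 20 listed NK cell genes, 13 passed the low-count filter, and 12 rose and 1 fell in the gate relative to NK1.1+ T cells. Their median log2 fold change was 3.16, against 0.02 over all genes. Of all 3475 tested genes, 258 (7.42%) were called higher and 245 lower. Since 1 class was enough to pass the filter, a gene could pass through the gate alone. The counts of listed genes in this contrast are therefore a description. Gzma, a granule protease, rose by 5.05, and Prf1, the pore-forming protein perforin, rose by 2.76 (edgeR adjusted p = 3.3e-05 and 1.7e-05). Zeb2, a transcription factor gene of terminal NK cell maturation, rose by 4.76 and the transcription factor gene Irf8 by 3.45 (edgeR adjusted p = 8.9e-06 and 2.7e-05). Irf8 had 76 UMIs and Zeb2 22 UMIs in the 21 gate cells with 0 UMIs of Itga1, Cd200r1, Eomes and Itga2. Those cells also carried 1465 CPM of macrophage markers and 3304 CPM of dendritic cell markers. In the 13 cells with Eomes or Itga2 but no Itga1 or Cd200r1 UMIs, Irf8 had 52 UMIs and Zeb2 had 37. The part of myeloid cells in these rises was not tested. Ly6c2 had a log2 fold change of -2.18 (edgeR adjusted p = 0.0020). Of 20 listed ILC1 genes, 17 passed the filter, and 2 rose and 7 fell, among the 7 Cxcr6, which the class rules use, with a median of -0.69. Xcl1, the chemokine that attracts cross-presenting dendritic cells, rose by 1.79 (edgeR adjusted p = 0.034) and Tnfsf10, the death ligand TRAIL, by 0.96 (adjusted p = 0.039). Il7r, the interleukin-7 receptor chain, fell by 1.70 and Rora, a nuclear receptor gene, fell by 3.14 (edgeR adjusted p = 0.00046 and 5.0e-05). Rgs1 (1.61, adjusted p = 0.082), Cxcr3 (-0.79, adjusted p = 0.077) and Cd69 (0.01, adjusted p = 1.0) did not pass.

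Within the gate, Eomes was mostly seen in other cells than Itga1 and Cd160. Eomes and Itga1 shared 1 cell, with 11 cells holding Eomes alone of the pair and 43 holding Itga1 alone. Of the 12 Eomes cells, all had Ncr1, 6 had Itgam, 6 had Tbx21, 1 had Cd160 and 0 had Tmem176a. Of the 44 Itga1 cells, 39 had Cd160, 19 had Cd200r1, 12 had Tmem176a and 6 had Itgam. Tmem176a and Tmem176b were found together in 17 cells, with 5 cells holding Tmem176a alone and 8 Tmem176b alone. These counts are limited by depth, since a cell with 0 UMIs of a gene may still express it.

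**Figure D2:**
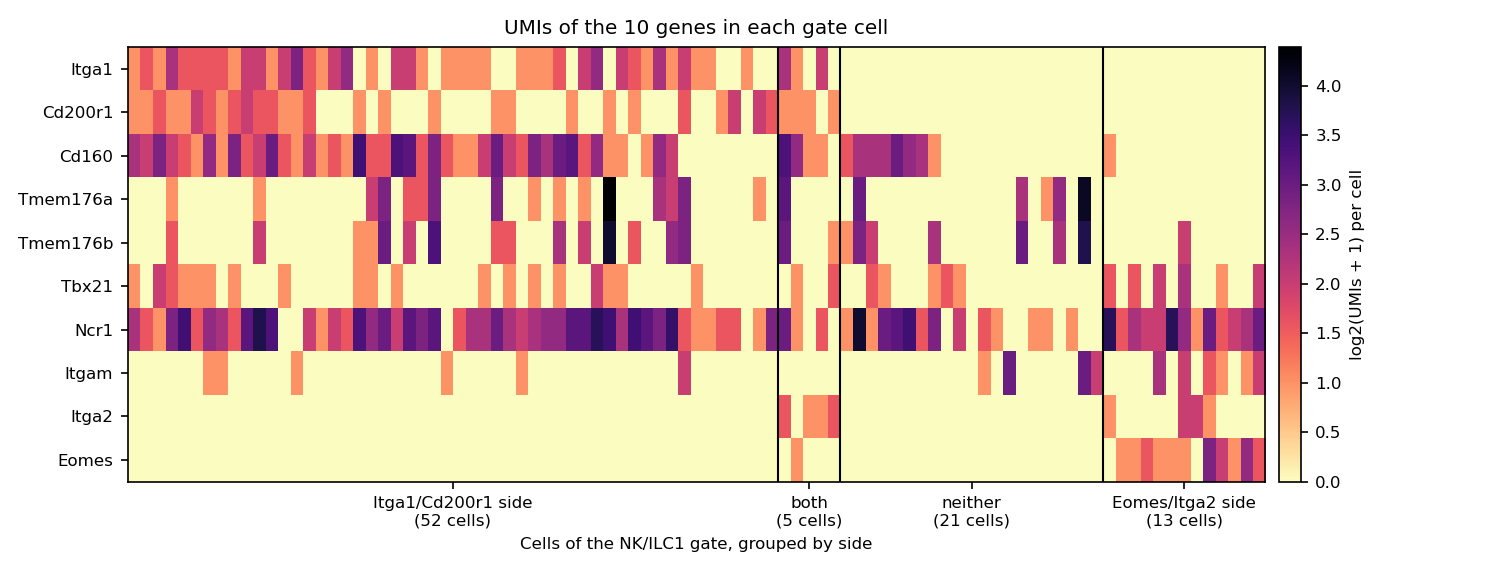
UMIs of the 10 genes (y axis) in each of the 91 gate cells (x axis), coloured by log2(UMIs + 1) and grouped by the Itga1, Cd200r1, Eomes and Itga2 UMIs of the cell. Cd160 UMIs filled 43 of the 52 cells with Itga1 or Cd200r1 alone and 1 of the 13 cells with Eomes or Itga2 alone.

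To see what the other members did, gate cells were split by 4 genes. Cells with Itga1 or Cd200r1 UMIs and none of Eomes and Itga2 formed an Itga1/Cd200r1 side of 52 cells. Cells with Eomes or Itga2 UMIs and none of Itga1 and Cd200r1 formed an Eomes/Itga2 side of 13 cells. A further 5 cells had both and 21 had neither. The sides are ranges of UMIs and not cell types, and their median depths were 5073.5 and 4450 UMIs. The cells with neither carried 1465 CPM of macrophage markers and 3304 CPM of dendritic cell markers, against 111 and 533 CPM on the Itga1/Cd200r1 side and 16.8 and 0 CPM on the Eomes/Itga2 side.

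Cd160, Tmem176a and Tmem176b had higher levels on the Itga1/Cd200r1 side than on the Eomes/Itga2 side. Cd160 had 154 UMIs in 43 of 52 cells on the Itga1/Cd200r1 side, against 1 UMI in 1 of 13 cells on the Eomes/Itga2 side. The levels were 570 and 16.8 CPM, a ratio of 33.9 (6.00 to 1349), and the Itga1/Cd200r1 side was higher in 4 of 4 libraries. The sum mixes zones, since 40 of the 52 Itga1/Cd200r1 cells but 6 of the 13 Eomes/Itga2 cells were from CV. Within PV the Cd160 levels were 180 and 33.4 CPM, a ratio of 5.38 (0.828 to 227) whose interval includes 1, and within CV they were 743 and 0 CPM, at least 7.35-fold higher on the Itga1/Cd200r1 side. Without CV replicate 2 the ratio over the other libraries was 15.2 (2.66 to 608). Tmem176a had 64 UMIs in 16 of 52 cells, against 0 UMIs in 13 cells, so it was at least 4.70-fold higher on the Itga1/Cd200r1 side, taking 3 UMIs for the whole other side. Tmem176b had 65 UMIs in 15 cells, against 3 UMIs in 1 cell, a ratio of 4.78 (1.56 to 23.8). Without PV replicate 1, where 1 cell gave 20 Tmem176a and 15 Tmem176b UMIs, the Itga1/Cd200r1 side was at least 2.71-fold higher for Tmem176a, and the Tmem176b ratio was 3.08 (0.994 to 15.4), an interval that includes 1. The 21 cells with neither pair held 224 CPM of Tmem176a and 258 CPM of Tmem176b, close to the 237 and 240 CPM of the Itga1/Cd200r1 side.

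Itgam had a higher level on the Eomes/Itga2 side, and Tbx21 did so in the sum over libraries. Itgam had 8 UMIs (29.6 CPM) in 6 of 52 cells on the Itga1/Cd200r1 side, against 14 UMIs (235 CPM) in 6 of 13 cells on the Eomes/Itga2 side, a ratio of 0.126 (0.0458 to 0.322). The Itga1/Cd200r1 side was lower in 3 of 4 libraries, and in CV replicate 1 the other side was a single cell with 0 UMIs. The 21 cells with neither pair held 18 of the 40 gate UMIs of Itgam, in 4 cells (122 CPM). That group also carried the macrophage and dendritic cell markers given above. Tbx21 had 88.8 CPM on the Itga1/Cd200r1 side, against 252 CPM on the Eomes/Itga2 side, a ratio of 0.353 (0.178 to 0.723), with UMIs in 19 of 52 cells, against 6 of 13 cells. The libraries did not agree on Tbx21: the Itga1/Cd200r1 side was lower in PV replicate 2 (14.1 against 278 CPM) and CV replicate 2 (96.3 against 331 CPM), about level in PV replicate 1 (81.4 against 83.9 CPM, 1 UMI each) and higher in CV replicate 1 (139 against 0 CPM, the other side being 1 cell). Without PV replicate 2 or CV replicate 2 the interval of the Tbx21 ratio included 1 (0.220 to 1.13, and 0.168 to 1.44). Ncr1 had 928 CPM on the Itga1/Cd200r1 side, against 1091 CPM on the Eomes/Itga2 side, a ratio of 0.851 (0.646 to 1.14), whose interval includes 1.

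The test over libraries was limited by cell numbers. With the 2 libraries that had at least 3 cells on either side, PV replicate 2 and CV replicate 2, edgeR called 0 of 743 genes (0.0%), 93 genes had an unadjusted p below 0.05, and DESeq2 called 13. Only 3 members passed the filter there, and Tbx21 (-2.39, adjusted p = 0.37), Itgam (-2.57, adjusted p = 0.39) and Ncr1 (-0.34, adjusted p = 0.86) did not pass the test. A fit over all 4 libraries was added after the data were seen. It called 18 of 283 genes, 6.36%, and the single member past its filter, Ncr1, did not pass (-0.17, adjusted p = 0.93). Without the filter, over 10667 genes of which 0.3% were called, 2 of 6 members outside the split, Ncr1 included, passed: Cd160 (4.82 ± 1.17, SE, edgeR adjusted p = 0.017) and Tmem176a (adjusted p = 0.0042). Tmem176b (3.02, adjusted p = 0.19), Itgam (-2.16, adjusted p = 0.70) and Tbx21 (-1.16, adjusted p = 0.96) did not. In the unfiltered fit over 2 libraries Cd160 passed again (4.63, edgeR adjusted p = 0.00033) and Tmem176a did not (adjusted p = 0.23). Over all genes, the median log2 fold change without the filter was 0.88 for 4 libraries and 1.06 for 2 libraries. With the filter it was 0.08 and 0.07. Ncr1 moved from -0.17 to 0.38 over 4 libraries. The unfiltered fold changes are therefore shifted towards the Itga1/Cd200r1 side.

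Other genes followed the split in the fit over 4 libraries. Of the 20 listed ILC1 genes, 4 had enough UMIs to be tested, and each rose on the Itga1/Cd200r1 side. Ltb (log2 fold change 5.09), which encodes lymphotoxin beta, passed the low-count filter through that side alone, with 141 UMIs, against 1 UMI, so it had to differ. The others were Xcl1 (3.34), the interferon-induced surface gene Ly6e (3.12) and Rgs1 (2.47), a brake on chemokine receptor signalling, with edgeR adjusted p from 0.00019 to 0.0015. Of the listed NK cell genes, 9 were tested, 3 fell and 1 rose. Prf1 had a log2 fold change of -3.00 (edgeR adjusted p = 0.00019), Klf2, a factor that keeps lymphocytes recirculating, had -3.51 (adjusted p = 0.0018), and Gzma had -1.59 (adjusted p = 0.0021), while Cd7 rose by 3.40 (adjusted p = 0.00013). Gzmb (0.84, adjusted p = 0.50), Ccl3 (0.13, adjusted p = 0.97) and Ccl4 (1.47, adjusted p = 0.24) did not pass. The calls for Prf1 and Gzma were lost without the low-count filter (edgeR adjusted p = 0.14 and 0.96). Prf1 also passed that filter through 1 side alone, with 587 to 2003 CPM on the Eomes/Itga2 side, against 0 to 235 CPM. Klf2 (839 to 2135 CPM there, against 0 to 589 CPM) passed mainly through the same side. Cd7 (2432 to 3625 CPM, against 0 to 1202 CPM) passed mainly through the Itga1/Cd200r1 side. Since 1 side was enough to pass, the calls in this fit are a description. S100a4 rose by 6.36 (edgeR adjusted p = 4.8e-05) and Sh3bgrl3 by 1.32 (adjusted p = 0.0030), while H2afz, Lgals1 and Nkg7 fell by 2.17, 1.65 and 0.95 (adjusted p = 0.00076, 0.0029 and 0.016).

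Several listed genes with too few UMIs for the filter lay almost wholly on one side. Cxcr6, the receptor that holds lymphocytes in liver sinusoids, had 100 UMIs in 36 of 52 cells on the Itga1/Cd200r1 side, against 0 UMIs on the Eomes/Itga2 side, at least 7.35-fold higher. Cd226, an activating receptor, had 120 UMIs, against 1 UMI. The Ly49 receptor gene Klra8 had 8 UMIs, against 68 UMIs, a ratio of 0.0259 (0.0108 to 0.054), and Klra4 had 7 UMIs, against 42 UMIs. Reads of the near-identical Ly49 genes may be split between family members, so single Ly49 values are uncertain. Irf8 had 15 UMIs, against 52 UMIs, and Zeb2 had 14 UMIs, all from 1 cell, against 37 UMIs in 11 of 13 cells.

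Transcripts of T cell receptor complex genes moved with the split. Cd3g, a CD3 chain that the gate rule does not use, had 306 UMIs in 36 of 52 cells on the Itga1/Cd200r1 side, against 3 UMIs in 1 of 13 cells on the Eomes/Itga2 side (log2 fold change 4.51 ± 0.77, SE, edgeR adjusted p = 0.00060). Cd3g passed the low-count filter through the Itga1/Cd200r1 side alone (733 to 1208 CPM, against 0 to 110 CPM), so its call is a description. Trbc1 had 213 UMIs, against 15 UMIs, and Trbc2 had 167 UMIs, against 12 UMIs. Summed over the 11 T cell markers the levels were 2545 and 503 CPM. Cd3d, Cd3e and Trac were at 0 on either side by the rule. The part of T cells in the values of the Itga1/Cd200r1 side was not tested. When Cd3g was also required to be 0, the fit over 4 libraries called 4 genes.

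**Figure D3:**
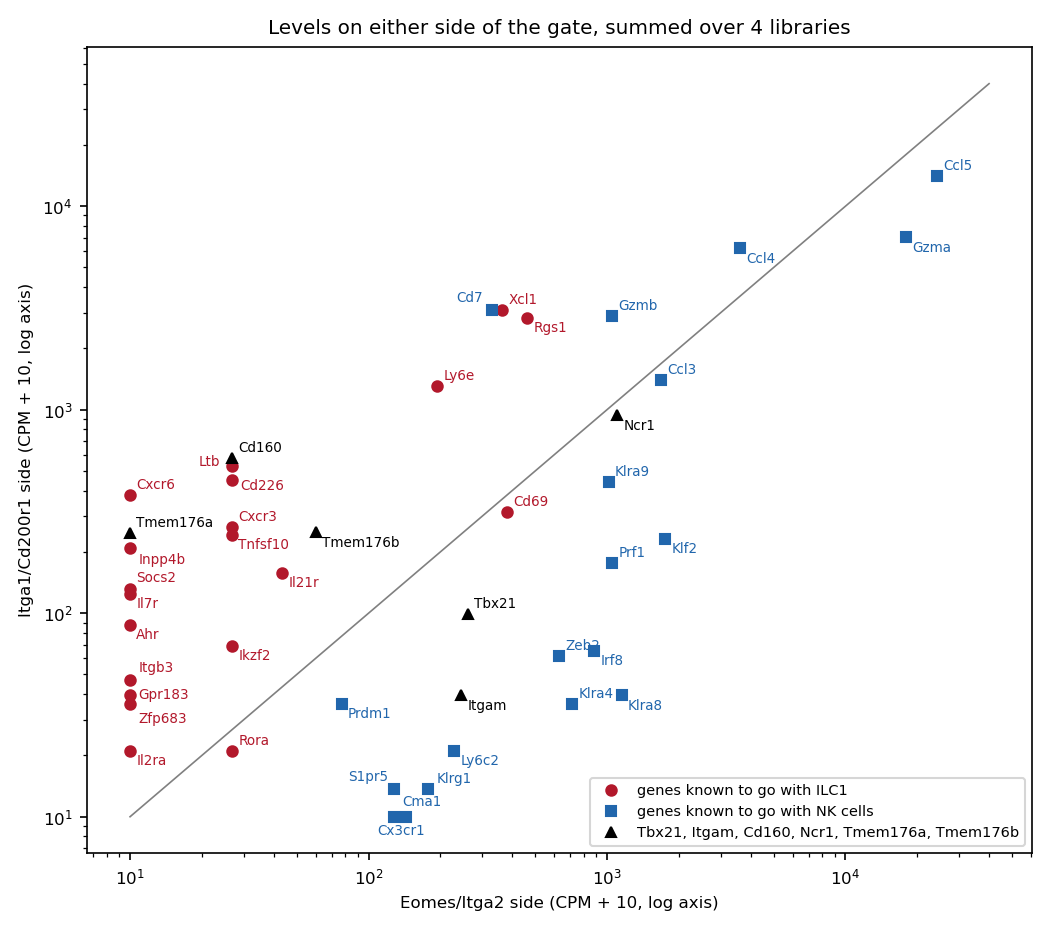
Level of listed NK cell and ILC1 genes and of the 6 members outside the split on the Itga1/Cd200r1 side (y axis) and the Eomes/Itga2 side (x axis), as CPM + 10 on log axes, with UMIs summed over 4 libraries. The line marks equal levels. Cd160 (570 and 16.8 CPM) lay far above the line, and Itgam (29.6 and 235 CPM) and Tbx21 (88.8 and 252 CPM) lay below it.

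The zones differed in how many gate cells were found and in their sides, by amounts that 2 libraries a zone cannot settle. The gate held 8 and 21 cells of PV replicates 1 and 2, or 2.40% and 4.10% of kept cells, and 29 and 33 cells of CV replicates 1 and 2, or 7.80% and 8.78%. The means were 3.25% ± 1.2 in PV and 8.29% ± 0.694 in CV (SD, n = 2 each), with no overlap. The exact two-sided permutation test gave p = 0.33, the smallest this design allows. When barcodes shared between libraries were kept in each, the gate held 26 and 36 cells in PV and 40 and 42 cells in CV, and the difference was -2.31 percentage points in place of -5.03. With Cd3g also at 0 it was -1.90.

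Of gate cells on either side, the Itga1/Cd200r1 side took 2 of 5 cells in PV replicate 1 and 10 of 14 in PV replicate 2, or 40.0% and 71.4%. It took 21 of 22 cells in CV replicate 1 and 19 of 24 in CV replicate 2, or 95.5% and 79.2%. The means were 55.7% ± 22.2 in PV and 87.3% ± 11.5 in CV (SD, n = 2 each; exact two-sided permutation p = 0.33, the smallest possible). The groups did not overlap, but the interval of PV replicate 2 (41.9 to 91.6) overlapped those of CV replicates 1 and 2 (77.2 to 99.9, and 57.8 to 92.9). The difference of -31.6 percentage points was -13.6 with shared barcodes kept and -53.1 with Cd3g at 0, and -15.9 to -47.3 when 1 library was left out.

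**Figure D4:**
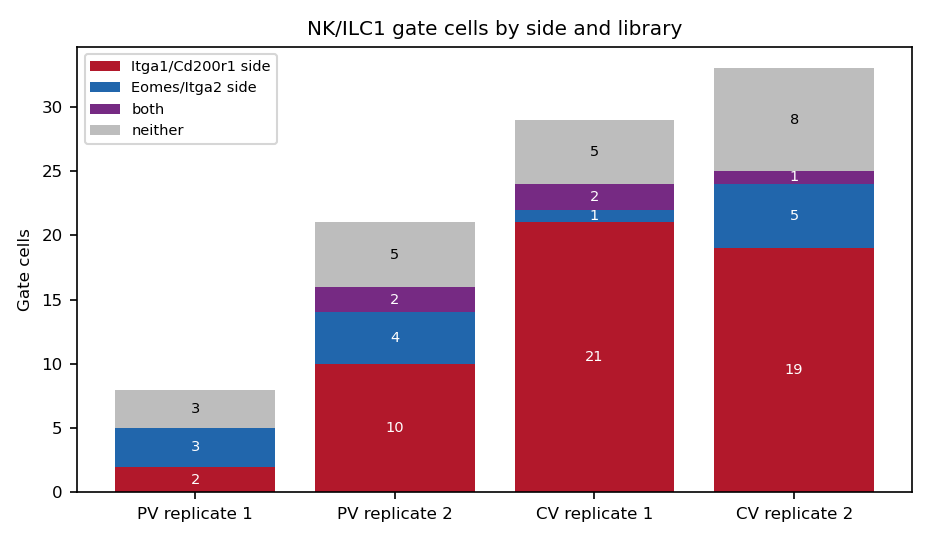
Number of gate cells (y axis) in each library (x axis), stacked by side. The Eomes/Itga2 side held 3 and 4 cells in PV replicates 1 and 2, and 1 and 5 cells in CV replicates 1 and 2, while the Itga1/Cd200r1 side held 2 and 10 cells in PV and 21 and 19 cells in CV.

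In gate cells, Cd160 was lower in PV, with no overlap between the zones. Its levels were 170 and 104 CPM in the PV libraries, against 661 and 524 CPM in the CV libraries, with means of 137 ± 46.3 CPM and 592 ± 96.4 CPM (SD, n = 2 each). Tbx21 had 67.8 and 55.1 CPM in PV, against 126 and 120 CPM in CV, with means of 61.5 ± 8.99 CPM and 123 ± 4.02 CPM (SD, n = 2 each). Itga1 had 33.9 and 153 CPM in PV, against 307 and 158 CPM in CV, and Cd200r1 had 33.9 and 73.5 CPM in PV, against 142 and 92.8 CPM in CV. Ncr1 had 814 and 527 CPM in PV, against 928 and 857 CPM in CV. Tbx21, Itga1, Cd200r1 and Ncr1 were thus also lower in both PV libraries. The share of all genes whose zones part in either direction is not given here, so the number of such members is not a result. The gate cells of PV replicate 2 held the macrophage and dendritic cell markers given above, and their NK cell and ILC1 markers summed to 11883 CPM, against 16191 to 20502 CPM in the other 3 libraries. Without the 5 cells rich in B cell or myeloid UMIs, 3 of them in PV replicate 2, Itga1 had 33.9 and 215 CPM in PV, against 317 and 191 CPM in CV, so the zones overlapped. Cd160 (170 and 146 CPM, against 682 and 633 CPM), Tbx21 (67.8 and 60.1 CPM, against 130 and 145 CPM), Cd200r1 and Ncr1 were lower in both PV libraries in the cells that remained.

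Eomes, Itga2 and Itgam had both PV libraries above both CV libraries, but Itga2 and Itgam did not without the 5 cells rich in B cell or myeloid UMIs. Itga2 had 136 and 24.5 CPM in PV, against 23.6 and 16.4 CPM in CV, on 3 or 4 UMIs a library. Itgam had 102 and 110 CPM in PV, against 15.7 and 92.8 CPM in CV. Without the 5 cells rich in B cell or myeloid UMIs, Itga2 had 136 and 17.2 CPM in PV, against 24.3 and 19.8 CPM in CV, and Itgam had 102 and 68.7 CPM in PV, against 16.2 and 112 CPM in CV, so both overlapped. For Eomes, the PV values of 305 and 49.0 CPM rested on 9 and 8 UMIs and the CV values of 7.86 and 38.2 CPM on 1 and 7 UMIs, and none of these UMIs lay in the 5 cells. Tmem176a and Tmem176b overlapped between zones.

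No test was planned for zones in the gate with fewer than 10 cells in a library, as in PV replicate 1, and a test was added after the data were seen. There edgeR called 0 of 2280 genes (0.0%), 169 genes had an unadjusted p below 0.05, and DESeq2 called 1. Of the members, 8 passed the filter and 0 passed the test. Cd160 had a log2 fold change of -2.33 ± 0.39 (SE, adjusted p = 0.49), which passed in the fit without the low-count filter (-2.48, adjusted p = 0.00017, where 1.65% of 11723 genes were called) and without the 5 cells rich in B cell or myeloid UMIs (-2.09, adjusted p = 0.014). Without PV replicate 1 the fold change was -2.54 (adjusted p = 4.1e-07), but that fit has PV replicate 2 as its only PV library and takes its spread from the CV libraries alone. Over the alternatives that kept all 4 libraries, the adjusted p of Cd160 ran from 0.00017 to 0.61. Within the Itga1/Cd200r1 side alone, Cd160 had 81.4 and 197 CPM in PV replicates 1 and 2, and 727 and 760 CPM in CV replicates 1 and 2, the first from 2 cells.

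In T cells, the same contrast gave a smaller difference for Cd160, and no member passed the test. Cd160 had 136 and 192 CPM in PV T cells and 202 and 229 CPM in CV T cells (log2 fold change -0.43 ± 0.19, SE, edgeR adjusted p = 1.0), and edgeR called 0 of 8037 genes (0.0%), with 230 at an unadjusted p below 0.05 and 1 called by DESeq2. The zone effect in the gate minus that in T cells was -2.11 ± 0.50 for Cd160 (SE, edgeR adjusted p = 0.0056). It was the only member called in that test, where 0.745% of 7114 genes were called. The call was lost with DESeq2 (-2.03, adjusted p = 1.0), with shared barcodes kept (-1.64, adjusted p = 0.31), and without PV replicate 2 (-1.56, adjusted p = 0.40), CV replicate 1 (-1.87, adjusted p = 1.0) or CV replicate 2 (-2.30, adjusted p = 0.77). By smallest p, the first genes called higher were Plac8, Ifi27l2a, Ctss, Ly6a and Ifi30 (5.86, 5.04, 6.96, 4.27 and 4.34). Of these, Plac8, Ctss and Ifi30 are used by myeloid cells. The first genes called lower were Igha, Igkc, Ccl5, Tcrg-C4 and Trbc1 (-9.09, -4.19, -0.87, -3.41 and -1.61). The part in these calls of the cells with macrophage and dendritic cell markers in PV replicate 2 was not tested. Without the cells rich in B cell or myeloid UMIs, a rule that uses no dendritic cell marker, the Cd160 call held (edgeR adjusted p = 0.0036).

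**Figure D5:**
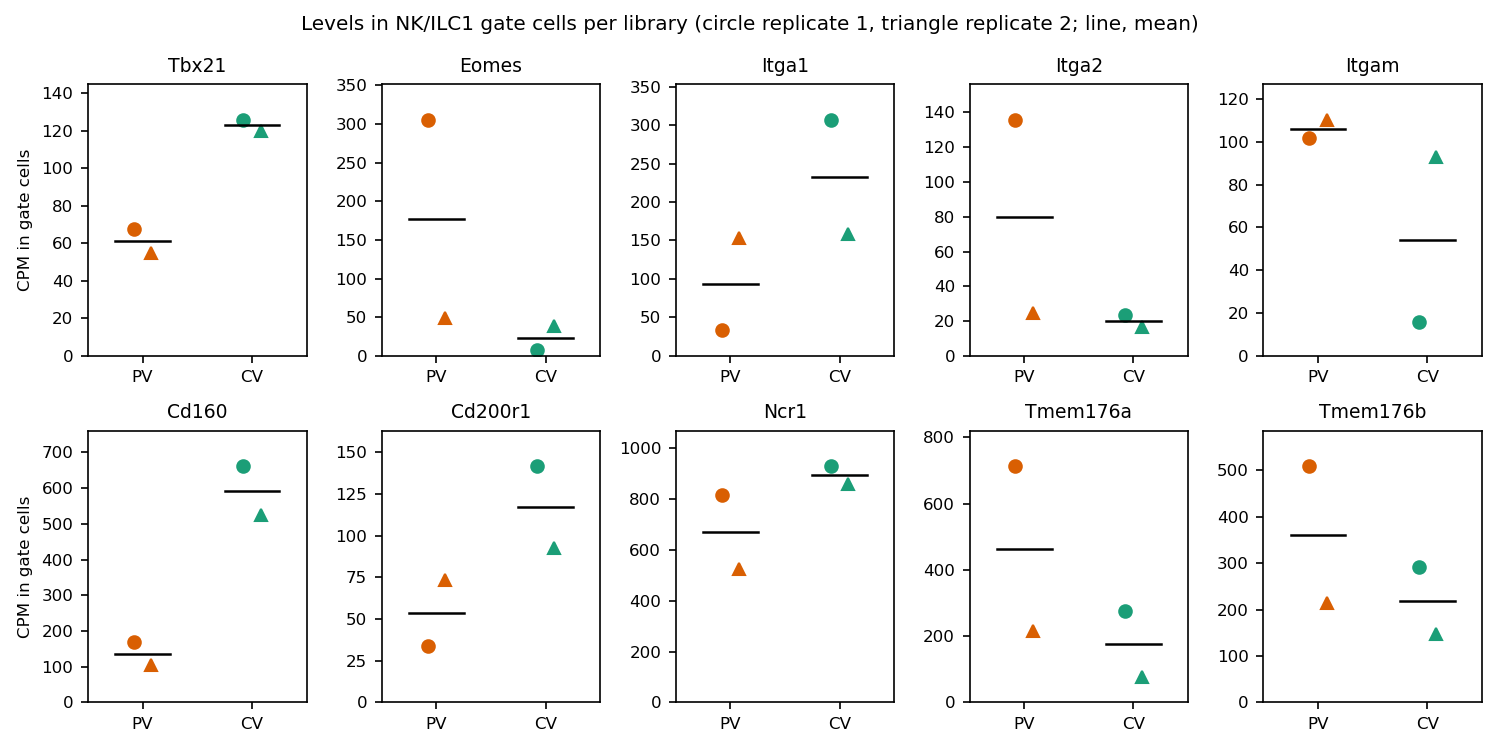
Level of each of the 10 genes in gate cells (CPM, y axis) by zone (x axis), with 1 point for each library and a line at the mean of a zone. Cd160 stood at 170 and 104 CPM in PV, against 661 and 524 CPM in CV, and the single high PV point of Tmem176a and Tmem176b is PV replicate 1, where 1 cell held most of their UMIs.

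Other genes whose levels ran most like a member across the 20 class sums are given as a description, since the sums share libraries and classes. Cd160 was most like Il2rb, a receptor chain for interleukin-2 and interleukin-15 (Pearson r 0.966), and the death ligand gene Fasl also ranked among its first 3 (0.946). Tbx21 was most like Cd160 (0.941), and Cd200r1 most like Serpinb9, an inhibitor of granzyme B (0.935), with Cd7 also among its first 3 (0.914). Ncr1 was most like Klrb1a (0.989), a lectin-like receptor gene. Eomes reached 0.864 with Ptbp3 and 0.834 with the Ly49 gene Klra7. Itga1 was most like Atp2b4 (0.927), Itga2 most like Fkbp8 (0.904) and Itgam most like Car2 (0.882).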

How the data were processed

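Gene expression was measured in single CD45+ cells by 10x Genomics 3′ v3.1 droplet sequencing. The authors deposited UMI counts per gene and cell for each library, made with Cell Ranger 4.0.0 on mm10, per the submitters' processing notes. For the annotation and the cell calling, the sources used here give nothing. Barcodes with at least 200 genes and at most 10% mitochondrial UMIs were kept, each only in the library holding at least 70% of its UMIs, which left 333 and 512 cells in PV libraries, against 372 and 376 in CV libraries, at median depths of 5369 to 6317 UMIs. Scrublet called 12 doublets, 1 of them in the gate, which stayed in except in 1 alternative.

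T cells had at least 2 UMIs of Cd3d, Cd3e and Trac together. Counts were summed per library and class, with a minimum of 5 cells, and tested with edgeR 4.0.16 (quasi-likelihood, TMM, filterByExpr, Benjamini-Hochberg at 0.05) in R 4.3.3. DESeq2 1.42.0, RLE factors, no filter, other gates, cell limits, shared barcodes kept and leaving out each library were alternatives. The code was tested on simulated data. Shares and exact tests used scipy 1.17.1. Likeness was taken on log2(CPM + 10).

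The zone test in the gate needed 10 cells in every library, was therefore not a planned result, and was added after the data were seen, as were the split over 4 libraries, the zone levels without cells rich in B cell or myeloid UMIs, and the side levels within zones or with 1 library left out. The members, gene lists and tests were chosen with earlier results of these data known. Named are all members, listed genes by smallest p (up to 8 that passed and 3 that did not, with UMIs of listed genes in the split), the smallest p of the split (8 each way) and of zones (5 each way), and the 3 genes most like each member. Of the genes, 32158 of 32285 matched an annotation symbol. Some listed genes are not reported here.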

Additional observations from a re-analysis of the deposited data

Results flagged for a closer look

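The zone effect on Cd160, PV over CV, differed between gate cells and T cells by -2.11 on the log2 scale, in a test of the difference itself (interaction term, edgeR adjusted p = 0.0056). Levels were 170 and 104 CPM in PV gate cells, against 661 and 524 CPM in CV gate cells, and 136 and 192 CPM in PV T cells, against 202 and 229 CPM in CV T cells. The call was lost with DESeq2, with shared barcodes kept, and without PV replicate 2, CV replicate 1 or CV replicate 2.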

How the results depend on the processing

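Of the main results under the alternatives, 108 values stayed within 1.5 times or within the spread and 36 moved. For single genes, 481 kept direction and call, 21 gained a call, 11 lost one and 1 changed sign. Without the low-count filter, the genes called were 876 in the gate against NK1.1+ T cells (503 as reported), 194 between zones in the gate (0), 45 in the split over 2 libraries (0) and 32 over 4 libraries (18). DESeq2 called 1 between zones in the gate, 1 between zones in T cells (0), 0 in the difference of zone effects (53) and 13 in the split over 2 libraries. RLE factors called 1 in that split. With the gate by Ncr1 alone the counts were 3 between zones, 34 in the difference and 11 in the split over 4 libraries. With Cd3g at 0 they were 24 in the difference and 4 in the split, and with at least 2 gate UMIs 24 and 11. Without cells rich in B cell or myeloid UMIs, 6 genes were called between zones. With shared barcodes kept, 1 was called in the difference and 18 in the split over 2 libraries. Splitting by Itga1 and Eomes alone gave 40 over 2 libraries and 11 over 4. The gate share differed by -2.31 percentage points with shared barcodes kept and -1.90 with Cd3g at 0 (-5.03). The causes were not tested.

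Leaving out 1 library gave 301 to 395 genes against Cxcr6+ T cells (455), 1 (without PV replicate 2) to 247 (without PV replicate 1) between zones in the gate, 0 to 14 in T cells, 4 (without CV replicate 2) to 139 (without PV replicate 1) in the difference, and 11 to 30 in the split over 4 libraries. Zone fits with 1 library left out have 1 library in a zone, assumed to vary like the other 2. The zone fold of Tmem176b (0.47) was -0.035 without PV replicate 1 and 1.05 without PV replicate 2. The split over 2 libraries could not be fitted with 1 library left out, which leaves no residual degrees of freedom, nor with Cd3g at 0, where too few cells remained.

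With the replicate number as a block, 9 genes were called between zones in the gate, and Cd160 passed (-2.27, adjusted p = 0.010); 0 were called in T cells. Deviations of same-numbered libraries correlated at -0.0206 (gate) and 0.123 (T cells), and the numbers pair nothing in the labels. Depth limits every gate result: 91 cells held 503110 UMIs, and Eomes rested on 25 UMIs and Itga2 on 14.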
